A study of Homo sapiens with 6 samples.

Results

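The 10 genes described here, all known targets of the transcription factor NF-kB, were followed in 6 RNA-seq libraries. The cells were HCT116, a long-established line from a human colon cancer. They are the chemokine and cytokine genes CXCL1, CXCL2, CXCL3, CXCL8, CCL20 and LIF and the effector genes ICAM1, IER3, BIRC3 and SOD2. They were taken by gene name, and all 10 were found among the 60675 genes of the deposited table. The libraries form 3 groups of 2. In siPIR cells the PIR gene was knocked down, and the protocol's 48 h is stated for DMSO or SP2509, with no separate time for the knockdown. SP2509 cells are wild type and received SP2509, which blocks the histone demethylase LSD1, at 3 uM for 48 h. The untreated cells are labelled as untreated and wild type. SP2509 also stands in the treatment field of both siPIR samples, so knockdown alone and knockdown with the compound cannot be told apart there. The labels name no control siRNA, so the effect of transfection and the loss of PIR cannot be told apart either. The treatment protocol names DMSO as well, and the labels do not say whether untreated cells received it. Nothing in the labels says that replicates came from separate cultures, so p-values measure the spread between these libraries, which may be technical.

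NF-kB is a family of dimeric transcription factors held in the cytoplasm by inhibitor proteins of the IkB family. Cytokines such as tumour necrosis factor or interleukin-1 activate a kinase that marks IkB for destruction, and the freed dimers bind kappaB sites in the promoters of inflammatory genes. Pirin, the product of PIR, is a nuclear iron protein that binds NF-kB at its target sites. In intestinal epithelium NF-kB is known for chemokines that draw neutrophils and dendritic cells to the mucosa, and for genes that protect the cell itself from death.

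CXCL1, CXCL2, CXCL3 and CXCL8 encode neutrophil chemokines that share the receptor CXCR2 and lie together on chromosome 4. In GENCODE 29 (GRCh38) CXCL8 (ENSG00000169429) spans chr4:73740506-73743716 and CXCL1 (ENSG00000163739) chr4:73869393-73871242, both on the plus strand. CXCL3 (ENSG00000163734) spans chr4:74036589-74038807 and CXCL2 (ENSG00000081041) chr4:74097035-74099293, both on the minus strand. CCL20 (ENSG00000115009) lies at chr2:227805739-227817564 and LIF (ENSG00000128342) at chr22:30240447-30246851. Of the effectors, ICAM1 (ENSG00000090339) lies at chr19:10270835-10286615, BIRC3 (ENSG00000023445) at chr11:102317450-102339403, IER3 (ENSG00000137331) at chr6:30743199-30744554 and SOD2 (ENSG00000112096) at chr6:159669057-159745186. Values are counts over the whole gene. The promoter table of RefSeq (GRCh38.p14) held 8 of the 10 genes, with LIF and IER3 unmatched. In the 250 bases before the start, the letters GGAANTTCC, which read the same on both strands, occurred in 5 of the 8, against 0.826% of all 35116 promoters. The NF-kB consensus of 10 letters, searched on both strands and overlapping the first motif in CXCL1, CXCL2 and CXCL3, occurred in 5 of the 8, against 5.21% of all promoters. TGANTCA, the site of AP-1 factors, was found in CXCL8 alone among these genes, and in 6.57% of all promoters. Matches to either NF-kB motif are shown in capitals, 5′ to 3′ on the strand of the gene. BIRC3 and CCL20 matched the consensus only, and CXCL8 and ICAM1 matched GGAANTTCC only. The RNA of the tested genes among them did not move together, and CCL20 was not tested. In CXCL8 the first run of capitals is the AP-1 site.
CXCL1 (chr4:73869305-73869333, plus strand): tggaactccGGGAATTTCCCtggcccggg
CXCL2 (chr4:74099254-74099282, minus strand): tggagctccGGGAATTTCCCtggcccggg
CXCL3 (chr4:74038749-74038777, minus strand): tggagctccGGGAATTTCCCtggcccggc
CXCL8 (chr4:73740417-73740501, plus strand): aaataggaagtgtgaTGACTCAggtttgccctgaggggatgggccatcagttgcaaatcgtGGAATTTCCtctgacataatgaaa
ICAM1 (chr19:10270925-10270951, plus strand): ctttagcttGGAAATTCCggagctgaa
BIRC3 (chr11:102317270-102317373, plus strand): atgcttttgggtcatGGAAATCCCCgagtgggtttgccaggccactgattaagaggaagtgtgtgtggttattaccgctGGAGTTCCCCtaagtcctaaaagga
CCL20 (chr2:227813748-227813787, plus strand): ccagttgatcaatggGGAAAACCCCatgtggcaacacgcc
Over 49 bases centred on the shared motif, CXCL1 was identical to CXCL3 at 91.8% of positions and to CXCL2 at 83.7%, but to CXCL8 at 44.9%. None of the 4 start windows listed for SOD2 held any of the motifs. No match says only that these letters are not in that window. In GENCODE release 29 the stretches of CXCL2, CXCL3 and ICAM1 lie inside a first exon of a transcript that starts further upstream.

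The libraries held 22622441 to 28816590 counts, and the 2 replicates of a group had correlations of 0.991 to 0.996 over 16503 tested genes. PIR was at 1.93 and 2.03 CPM in siPIR libraries, at 14.8 and 11.8 CPM in SP2509 libraries and at 14.4 and 14.6 CPM in untreated libraries (CPM is the count relative to library size, with sizes adjusted by TMM, a trimmed mean of ratios between libraries). The count-weighted GC content was 42.3% and 42.8% in the siPIR libraries and 48.3% to 48.7% in the other 4. Of 8 markers of colorectal epithelium, 8 had counts in SP2509 and untreated libraries and 7 in siPIR libraries, with LGALS4 at 0 in siPIR. They summed to 1319 to 1327 CPM in siPIR, 4636 to 4689 CPM in SP2509 and 3574 to 3643 CPM in untreated libraries. KRT8, KRT18, KRT19 and CDX2 were called lower and EPCAM and CDH1 higher in siPIR than in untreated cells by edgeR, and VIL1 and LGALS4 had at most 14 counts in any library. These sums and calls carry no GC-length offset (described below). With it KRT19 went from -3.61 to -0.02 on the log2 scale and was not called (edgeR adjusted p = 0.864). KRT8 (-0.74), KRT18 (-0.56) and CDX2 (-1.32) stayed lower, and EPCAM (1.73) and CDH1 (0.82) stayed higher. The 8 leukocyte markers summed to between 0.729 and 3.54 CPM, with PTPRC, CD3E and MS4A1 at 0 in every library. ITGAX averaged 2.62 CPM in untreated, 0.80 CPM in SP2509 and 0.39 CPM in siPIR libraries. CD14 had 23 and 20 counts in SP2509 and 9 and 3 in untreated libraries. It was called higher with SP2509 (log2 fold change 2.22, edgeR adjusted p = 0.000693), the only group through which it passed the filter. The 8 fibroblast markers summed to 1.88 and 2.34 CPM in siPIR, 20.8 to 22.1 CPM in SP2509 and 22.8 to 25.8 CPM in untreated libraries, with COL1A1 averaging 1.356 CPM in siPIR, 21.2 CPM in SP2509 and 23.4 CPM in untreated libraries and COL1A2 at 0 throughout. In siPIR against untreated, COL1A1 changed by -4.10 on the log2 scale as fitted and by -0.77 with the offset. The part of these marker shifts in the results below was not tested. The 6 endothelial markers summed to at most 1.83 CPM.

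With SP2509, the neutrophil chemokine genes CXCL8, CXCL2 and CXCL3, the cytokine gene LIF and the survival gene BIRC3 rose, while SOD2 and ICAM1 fell and CXCL1 and IER3 did not pass the test. This comparison asks how the genes differ between cells given the compound and untreated cells. Whether the untreated cells received DMSO is not stated, so an effect of DMSO cannot be told apart. Of the 9 members tested, 5 rose and 2 fell by edgeR's quasi-likelihood test. Over all 16503 genes 68.6% were called, 33.5% of the tested genes higher and 35.1% lower. With the GC-length offset described below, 6 members rose and 1 fell, against 72.7% of all genes called, 38.2% higher and 34.5% lower. CXCL2 had to be high with SP2509 to be tested at all. Without it 4 of 8 members rose and 2 fell, with a median log2 fold change of 0.60, against -0.04 over all genes.

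CXCL8 encodes interleukin-8, the main neutrophil attractant of human epithelium. It had 184 and 219 counts in SP2509 libraries, against 28 and 22 in untreated libraries. On the CPM scale it averaged 7.86 ± 0.897 in SP2509 and 0.735 ± 0.0557 in untreated cells (SD, n = 2 each), and the groups did not overlap. Its log2 fold change was 3.41 (SE 0.214, edgeR adjusted p = 4.3e-08), a 10.6-fold rise. Only 108 of the 16503 tested genes had a larger one.

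CXCL2 and CXCL3 rose less and from very few reads. CXCL3 had 47 and 51 counts in SP2509 libraries, against 35 and 18 in untreated libraries. The 2 untreated libraries lie apart, but both are below the SP2509 libraries once scaled, at 1.85 and 1.98 CPM in SP2509 and 0.968 and 0.569 CPM in untreated. SP2509 changed it by 1.29 on the log2 scale (SE 0.285, edgeR adjusted p = 0.00137). CXCL2 had 18 and 21 counts in SP2509 libraries, against 10 and 8.5 in untreated libraries, with no overlap after scaling. It changed by 1.503 on the log2 scale (SE 0.376, edgeR adjusted p = 0.00323). CXCL2 passed the filter on low counts only through the SP2509 group, so it could not have entered the test without being high there.

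CXCL1 did not move with its paralogs. Counts were 20 and 17 with SP2509 and 26 and 23 in untreated cells, and the scaled values overlapped at 0.786 and 0.66 CPM in SP2509 and 0.719 and 0.727 CPM in untreated. The 95% interval of its log2 fold change ran from -0.68 to 0.68. The 3 genes are paralogs, and the deposited values are partly fractions, so how any shared reads were divided among them is uncertain. Summed into 1 feature, CXCL1, CXCL2 and CXCL3 rose by 0.94 on the log2 scale (SE 0.195, adjusted p = 0.00087 by edgeR).

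LIF, a cytokine of the interleukin-6 family that signals through LIFR and IL6ST, was the ligand with the most reads. It had 3974.1 and 4533 counts in SP2509 libraries, against 2004 and 1752 in untreated libraries. Its level was 166.0 ± 13.97 CPM in SP2509 and 55.4 ± 0.0198 CPM in untreated cells (SD, n = 2 each), clear of each other. The log2 fold change was 1.58 (SE 0.114, edgeR adjusted p = 1.24e-07), a 2.99-fold rise. CCL20, the ligand of CCR6 that draws dendritic cells and T helper cells, was barely detected. It had 1 count in a siPIR library, 1 in an SP2509 library and 0 in the other 4, and was not tested. A count of 0 allows up to 3 counts, which is 0.083 to 0.157 CPM in these libraries (counting error only).

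**Figure D1:**
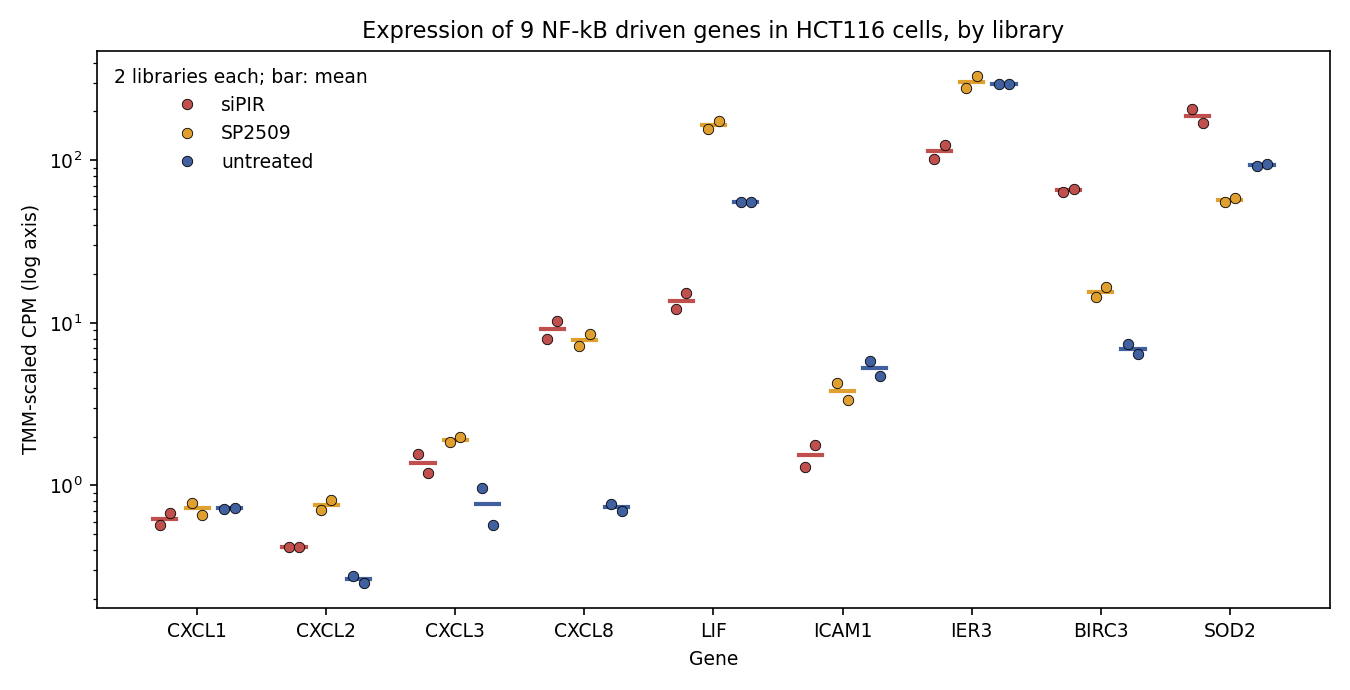
Each point is the TMM-scaled CPM of a gene in 1 library on a log axis, with a bar at the mean of the 2 libraries of siPIR (red), SP2509 (orange) and untreated (blue) cells. CXCL8 is near 0.7 CPM in untreated libraries and between 7.23 and 10.3 CPM in the other 4, LIF is highest with SP2509 and lowest with siPIR, and CCL20 is left out because 4 of its 6 values are 0. No GC-length offset is applied, and with it LIF was higher in siPIR than in untreated cells (log2 fold change 0.29).

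Among the effectors, BIRC3 rose. It encodes cIAP2, a ubiquitin ligase that keeps tumour necrosis factor receptors from triggering death. It had 366 and 429 counts in SP2509 libraries, against 267 and 204 in untreated libraries, or 14.4 and 16.6 CPM against 7.39 and 6.45 CPM. The groups did not overlap, and the log2 fold change was 1.16 (SE 0.126, edgeR adjusted p = 4.13e-06).

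SOD2, the manganese superoxide dismutase of mitochondria, went the other way. Its counts were 1411.83 and 1505 in SP2509 libraries, against 3354 and 3002 in untreated libraries. It averaged 56.9 ± 2.07 CPM in SP2509 and 93.9 ± 1.53 CPM in untreated cells (SD, n = 2 each), well apart. The change was -0.72 on the log2 scale (SE 0.111, edgeR adjusted p = 8.25e-05). The annotated span of SOD2 overlaps WTAP on the opposite strand. The kit used was directional, but the sources used here do not say whether the counting used strand, so reads of the 2 genes may not be told apart. WTAP was at 116.8 and 105.1 CPM in SP2509 libraries, against 65.3 and 67.1 CPM in untreated libraries. The part of WTAP reads in the SOD2 values was not tested.

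ICAM1, the adhesion molecule that leukocyte integrins bind, was low throughout. It had 109 and 87 counts in SP2509 libraries, against 212 and 149 in untreated libraries. The scaled values were 4.28 and 3.38 CPM in SP2509 and 5.86 and 4.71 CPM in untreated, separated by less than the gap between the untreated libraries. Its log2 change of -0.47 (SE 0.184, edgeR adjusted p = 0.0367) was not called by DESeq2 (adjusted p = 0.166), with the GC-length offset (edgeR adjusted p = 0.128), without untreated replicate 1 (0.33) or without SP2509 replicate 2 (0.289). IER3, an early-response gene that modulates cell death, was the most abundant member. It was at 277.2 and 330.2 CPM in SP2509 libraries, which lie on either side of 295.8 and 293.8 CPM in untreated libraries. Its log2 fold change was 0.043, with a 95% interval from -0.21 to 0.30. Scaled by total counts alone it fell by 0.35 on the log2 scale (edgeR adjusted p = 0.0177), while the median of all genes stood at -0.43 under that scaling. With the GC-length offset it was at 0.17 (edgeR adjusted p = 0.0432), and with the replicate block added to that fit it was not called (edgeR adjusted p = 0.0533).

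Mitochondrial ribosomal RNA made up 6.33% and 6.93% of the SP2509 libraries and 1.63% and 1.595% of the untreated ones, and its part in these results was not tested.

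The wider pathway was described through lists that do not contain the 10 genes. Their counts stand beside 33.5% of all tested genes higher and 35.1% lower with SP2509. Of 33 tested genes among 50 other NF-kB targets, 22 rose and 2 fell with SP2509, with a median log2 fold change of 0.97. CSF2 (111 and 141 counts in SP2509, 1 and 0 in untreated) and IL1A (17 and 23 against 4 and 5) passed the filter only through SP2509. MMP9, 1 of the 2 that fell (4 and 5 against 20 and 22), passed it only through untreated cells. None of them could have been tested without being high in that group. TNFAIP3, which encodes the ubiquitin-editing inhibitor A20, rose to 43.9 ± 5.66 CPM in SP2509, against 4.09 ± 0.0101 CPM in untreated cells. The urokinase receptor gene PLAUR changed by 2.33, its ligand gene PLAU by 1.92 and the NF-kB subunit gene RELB by 1.96 on the log2 scale, all with edgeR adjusted p of 2.85e-08 or lower. Of 10 genes of NF-kB subunits, inhibitors and PIR, some of which are also in the list above, 8 rose and 0 fell (median 0.85, and 0 fell also with the GC-length offset). Besides RELB they included the coactivator gene BCL3 (1.32), NFKB1 (0.93) and the inhibitor gene NFKBIE (0.83). Of 9 tested cytokine receptor genes that feed into the pathway, 6 rose and 1 fell, led by IL1RAP, the accessory chain of the interleukin-1 receptor, at 2.88. The 1 that fell, TNFRSF1B, passed the filter only through untreated cells (39 and 20 counts there). The kinases and adaptors between receptor and IkB split, with 4 of 15 higher and 5 lower, near or below those shares, and the adaptor gene MYD88 fell by 1.52. Of 7 genes that act on AU-rich mRNAs such as those of chemokines, 4 rose and 2 fell, with ZFP36, which encodes the decay factor tristetraprolin, at 1.89.

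**Figure D2:**
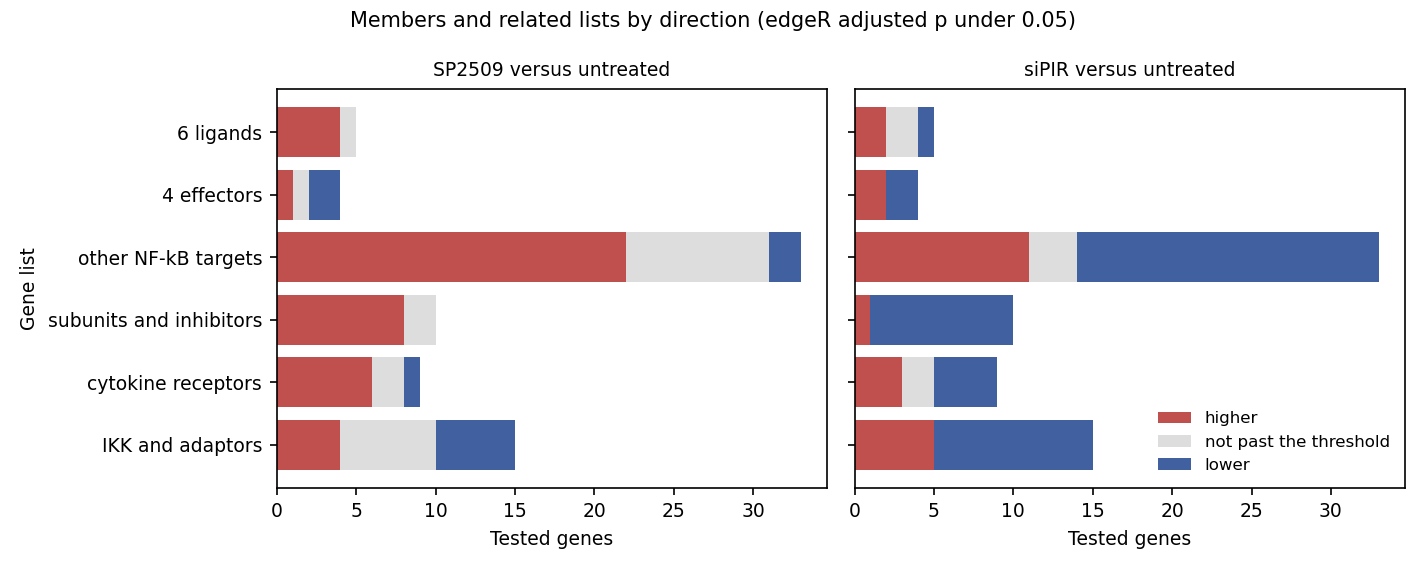
Bars count the tested genes of each list that were higher (red), lower (blue) or not past an edgeR adjusted p of 0.05 (grey), for SP2509 and for siPIR, each against untreated. With SP2509, 22 of 33 other NF-kB targets were higher and 2 lower, and with siPIR 11 were higher and 19 lower as fitted, which turned to 17 higher and 3 lower with the GC-length offset. Over all tested genes 33.5% were higher and 35.1% lower with SP2509, and 39.3% and 46.9% in siPIR (32.7% and 32.4% with the offset). CSF2 and IL1A were tested only because they were high with SP2509, and MMP9, IL32 and TNFRSF1B only because they were high in untreated cells.

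Receptors for the secreted members were mostly absent from these cells. CXCR1 and CXCR2, the receptors of the neutrophil chemokines, reached no more than 6 counts, and CCR6 had 1 count in all. The neutrophil chemokine neighbours CXCL5, CXCL6, PF4, PPBP and PF4V1 and the receptor gene ACKR1 had 0 counts in all 6 libraries. CXCL9 had none either, and CXCL10, CXCL11 and CXCL13 had between 1 and 5 counts over all libraries. The receptor chains of LIF were present. LIFR had 4379.1 and 4050 counts in siPIR, 1525 and 1393 in SP2509 and 1467.2 and 1269 in untreated libraries. IL6ST had 5906.83 and 5173.5 counts in siPIR, 2447.5 and 2174 in SP2509 and 2347.67 and 1928 in untreated libraries. Of the integrin genes for binding ICAM1, the 3 on the list were near 0, with at most 16 counts for ITGB2, 13 for ITGAM and 4 for ITGAL. The integrin gene ITGAX, given above with the leukocyte markers, was not on that list and had 100 and 77.5 counts in untreated libraries.

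Knockdown of PIR was set against untreated cells to see which of these genes change when pirin is reduced. CXCL8, BIRC3, SOD2 and CXCL3 were higher in siPIR libraries and LIF, ICAM1 and IER3 lower, while CXCL1 and CXCL2 did not pass the test. Of the 9 members tested, 4 rose and 3 fell, against 86.1% of all genes called, 39.3% higher and 46.9% lower. The members' share is near the background. With the GC-length offset described next, 5 rose and 1 fell, against 65.1% of all genes called, 32.7% higher and 32.4% lower. Fold changes over all genes followed the GC content of the transcript in this comparison, with a median of 2.34 over 339 genes with 30 to 35% GC and -2.61 over 2429 genes with 55 to 60% GC. Each tested member is therefore given with its GC content and with the value from a fit in which a smooth trend on GC content and transcript length was removed (the GC-length offset). That offset is estimated from the same libraries and also removes any true change that follows GC content or length.

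CXCL8 had 153 and 197 counts in siPIR libraries, against 28 and 22 in untreated libraries. Its level was 9.13 ± 1.602 CPM in siPIR and 0.735 ± 0.0557 CPM in untreated cells (SD, n = 2 each), without overlap. Its log2 fold change was 3.62 (SE 0.215, edgeR adjusted p = 2.64e-09), above the 90th percentile (3.28) of genes with 30 to 35% GC, to which it belongs at 33.4%. With the offset the rise was smaller, at 1.48 (edgeR adjusted p = 0.000109).

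BIRC3, at 34.8% GC, also rose, to a value below that 90th percentile. It had 1226.43 and 1288 counts in siPIR libraries, against 267 and 204 in untreated libraries, or 64.1 and 67.1 CPM against 7.39 and 6.45 CPM. The log2 change of 3.24 (SE 0.122, edgeR adjusted p = 5.75e-11) became 1.13 with the offset (edgeR adjusted p = 7.66e-07). CXCL3, at 50.5% GC, had 30 and 23 counts in siPIR and 35 and 18 in untreated libraries. It lay at 1.57 and 1.20 CPM in siPIR, above 0.968 and 0.569 CPM in untreated, and changed by 0.82 (SE 0.32, edgeR adjusted p = 0.0284). The call was lost with total counts (0.21, edgeR adjusted p = 0.549), without untreated replicate 2 (0.225) and without siPIR replicate 1 (0.157), and the value was 1.48 with the offset (edgeR adjusted p = 0.000457). Genes with 50 to 55% GC had a median of -1.18 and a 90th percentile of 0.35.

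CXCL1, at 45.6% GC, had 11 and 13 counts in siPIR libraries and 26 and 23 in untreated libraries. Scaled, it was at 0.575 and 0.677 CPM in siPIR, just below 0.719 and 0.727 CPM in untreated. The log2 fold change was -0.21 with a 95% interval from -0.96 to 0.54. With total counts it was -0.82 (edgeR adjusted p = 0.0444), beside a median of -0.89 over all genes, and with the offset -0.52 (edgeR adjusted p = 0.223). CXCL2, at 46.0% GC, had 8 counts in each siPIR library, against 10 and 8.5 in untreated libraries, and its log2 fold change of 0.64 had an interval from -0.35 to 1.64, and it was 0.41 with the offset (edgeR adjusted p = 0.482). Differences of that size were not detectable at this depth. The 3 genes summed gave 0.46 (SE 0.218, edgeR adjusted p = 0.0653).

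LIF, ICAM1 and IER3, the 3 members that were lower, have the highest GC contents of the 10, at 56.9%, 56.9% and 58.5%. LIF had 232 and 294.6 counts in siPIR libraries, against 2004 and 1752 in untreated libraries, or 12.1 and 15.4 CPM against 55.4 and 55.4 CPM. Its log2 change of -2.01 (SE 0.127, edgeR adjusted p = 4.83e-09) turned to 0.29 with the offset (edgeR adjusted p = 0.0101). ICAM1 had 25 and 34 counts in siPIR libraries, against 212 and 149 in untreated libraries. It changed by -1.78 (SE 0.23, edgeR adjusted p = 7.3e-06) as fitted and by 0.53 with the offset (edgeR adjusted p = 0.0612), which became a call for higher with the replicate block added to that fit (0.55, edgeR adjusted p = 0.0489). IER3 had 1954 and 2403 counts in siPIR libraries, against 10692.2 and 9292.24 in untreated libraries, at 102.1 and 125.1 CPM against 295.8 and 293.8 CPM. It changed by -1.38 (SE 0.122, edgeR adjusted p = 1.6e-07) as fitted and by 1.40 with the offset (edgeR adjusted p = 8.96e-13). All 3 lay above the median of genes with 55 to 60% GC (-2.61) and below their 90th percentile (-0.94).

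SOD2 had 3946.5 and 3243.67 counts in siPIR libraries, against 3354 and 3002 in untreated libraries. On the CPM scale the siPIR libraries were apart from each other at 206.1 and 168.9, and both above the untreated libraries at 92.8 and 94.9. The log2 fold change was 0.999 (SE 0.11, edgeR adjusted p = 1.47e-06), close to the median of 1.08 over genes with 40 to 45% GC, and turned to -0.24 with the offset (edgeR adjusted p = 0.0222). The longest transcript of its gene model has 41.7% GC, while a second SOD2 model of the same annotation has 55.004%, so the GC content assigned to SOD2 is uncertain. WTAP on the opposite strand was at 150.2 and 131.2 CPM in siPIR libraries, against 65.3 and 67.1 CPM in untreated libraries. Its part in the SOD2 values was not tested here either.

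**Figure D3:**
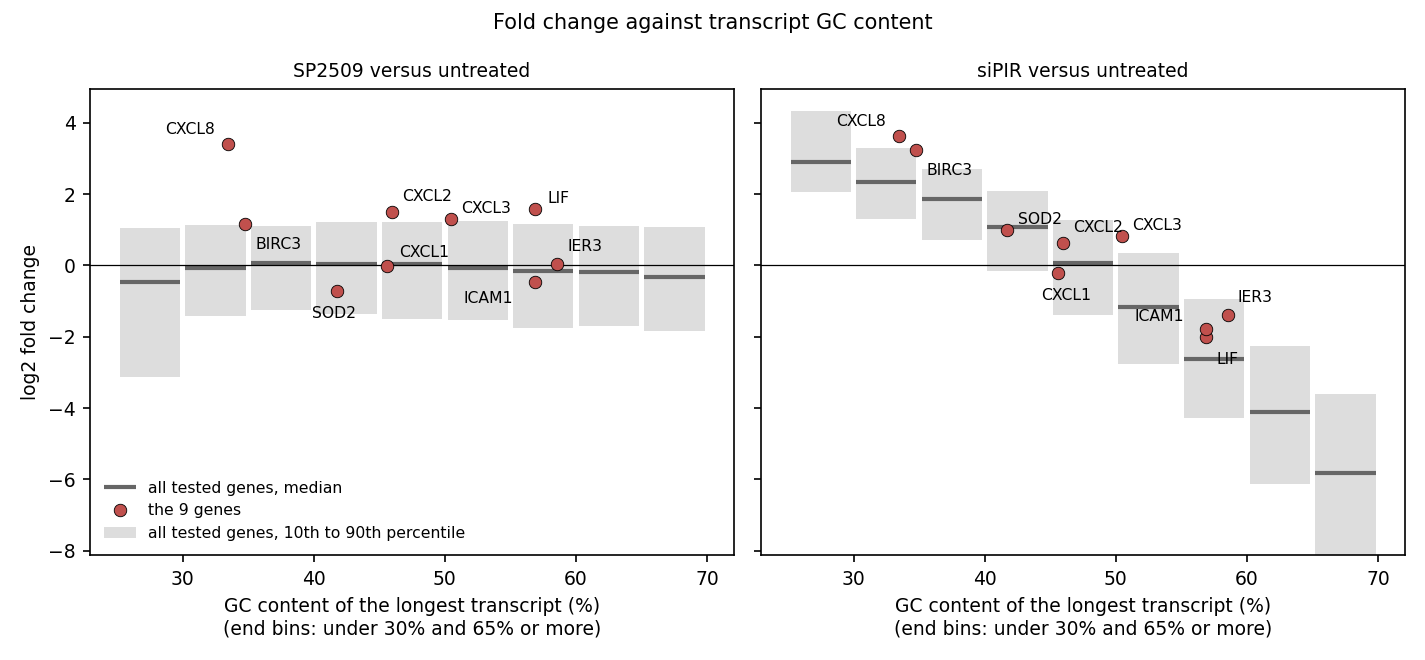
The log2 fold change of the 9 tested genes (red) is set against the GC content of the longest transcript, for SP2509 and for siPIR, each against untreated. Grey bars span the 10th to 90th percentile of all tested genes in each GC bin, and the dark lines their median, which runs from 2.91 to -5.83 in siPIR and stays between -0.45 and 0.07 with SP2509.

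For the wider pathway, the list counts stand beside 39.3% of all tested genes higher and 46.9% lower in siPIR as fitted. With the offset these shares were 32.7% and 32.4%. Some counts, such as those of the cytokine receptors as fitted, are near these shares. Of the 33 other NF-kB targets (median GC content 52.6%), 11 were higher and 19 lower in siPIR, with a median of -0.95 against -0.28 over all genes. With the offset 17 were higher and 3 lower, with a median of 0.45 against -0.04. IL32 and MMP9, among the 19 lower as fitted, and the receptor gene TNFRSF1B passed the filter only through untreated cells. TNFAIP2, a target induced by tumour necrosis factor, fell by 3.81 at 62.0% GC and was at -0.21 with the offset. The offset left a median of -0.52 over genes with 60 to 65% GC, so values of such genes keep part of the trend. TNFAIP8 rose by 3.30 (1.87 with the offset), and BIRC2, which encodes cIAP1, the close relative of the BIRC3 product, rose by 2.84 (1.12 with the offset). Of the 10 subunit and inhibitor genes, 9 were lower and 1 higher, and 4 were higher and 2 lower with the offset. Of the 15 kinases and adaptors 5 were higher and 10 lower (2 and 5 with the offset), of the 9 cytokine receptors 3 were higher and 4 lower (5 and 4 with the offset), and of the 7 genes acting on AU-rich mRNAs 4 were higher and 2 lower. PIR itself changed by -2.87, and by -2.0 with the offset. IL1RAP was at 117.8 ± 5.99 CPM in siPIR and 6.13 ± 0.714 CPM in untreated cells, and its rise was 4.26 (3.09 with the offset).

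**Figure D4:**
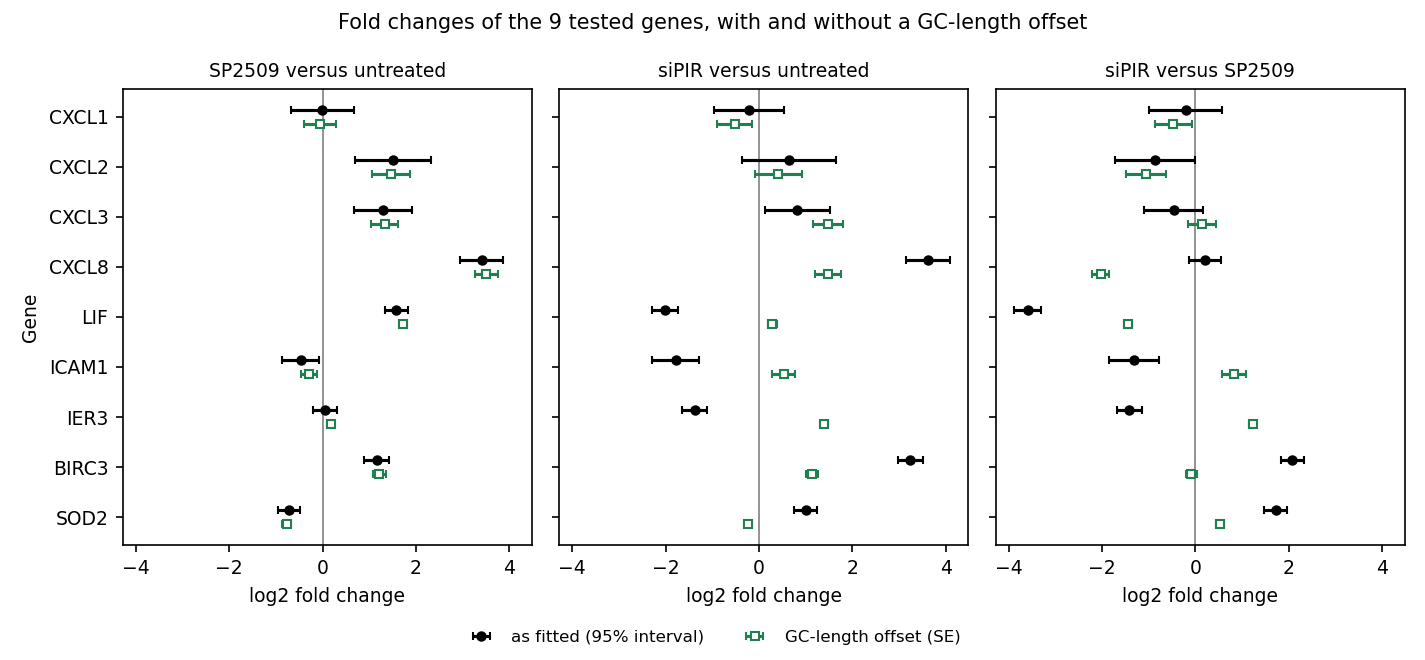
Log2 fold changes of the 9 tested genes in the 3 comparisons, as fitted (black, 95% interval) and with the GC-length offset (green squares, SE). The pairs of points lie close together for SP2509 against untreated, while LIF, ICAM1, IER3 and SOD2 change side in siPIR against untreated.

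Set directly against each other, siPIR and SP2509 cells differed most in LIF, BIRC3 and SOD2 as fitted, and in CXCL8, LIF and IER3 with the GC-length offset. Of the 9 members, 2 were higher and 3 lower in siPIR, against 84.3% of all genes called, 38.8% higher and 45.5% lower. With the offset 3 were higher and 3 lower, against 69.7% of all genes called, 32.6% higher and 37.1% lower. The 3 lower with the offset include CXCL2, which passed the filter only through SP2509. LIF averaged 13.7 ± 2.29 CPM in siPIR and 166.0 ± 13.97 CPM in SP2509 cells (SD, n = 2 each), 12.1-fold lower in siPIR (log2 fold change -3.59, SE 0.13, edgeR adjusted p = 3.61e-11). With the offset it stayed lower, at -1.44 (edgeR adjusted p = 3.83e-12). SOD2 averaged 187.5 ± 26.3 CPM in siPIR and 56.9 ± 2.07 CPM in SP2509 cells. It was higher in siPIR as fitted (1.72, SE 0.113) and with the offset (0.53, edgeR adjusted p = 2.28e-05). BIRC3 was higher in siPIR by 2.08 (SE 0.114, edgeR adjusted p = 1.3e-09), but at -0.086 with the offset (edgeR adjusted p = 0.55). IER3 and ICAM1 were lower in siPIR by -1.42 and -1.31, and turned to 1.23 and 0.83 with the offset.

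For CXCL8 the difference between siPIR and SP2509 was 0.21 on the log2 scale, with a 95% interval from -0.13 to 0.56, and did not pass the test (edgeR adjusted p = 0.216). The libraries overlapped, at 7.99 and 10.3 CPM in siPIR and 7.23 and 8.5 CPM in SP2509. Without siPIR replicate 1 it passed (0.39, edgeR adjusted p = 0.0394), and with the offset it was lower in siPIR at -2.03 (edgeR adjusted p = 1.01e-08). CXCL2 was at 0.418 and 0.417 CPM in siPIR and 0.707 and 0.815 CPM in SP2509, a difference of -0.86 (edgeR adjusted p = 0.0568) that passed with total counts (-1.08, edgeR adjusted p = 0.0219) and with the offset (-1.05, 0.0325). It was tested only because it was high with SP2509, which favours a lower value in siPIR, so no conclusion is drawn from these calls. CXCL3 differed by -0.47 (95% interval -1.09 to 0.16) and passed with total counts (-0.70, edgeR adjusted p = 0.033). CXCL1 differed by -0.21 (95% interval -0.99 to 0.58). The 3 summed were lower in siPIR by 0.48 on the log2 scale (edgeR adjusted p = 0.0419). The comparisons of siPIR and of SP2509 with untreated cells share the untreated libraries, so their values are given side by side here without a measure of likeness between them.

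Levels of different genes were compared as CPM per kilobase of the longest transcript. In untreated cells IER3 stood first at 218 ± 1.0, followed by LIF at 13.96 ± 0.00499, SOD2 at 6.58 ± 0.107, ICAM1 at 1.63 ± 0.251 and BIRC3 at 1.33 ± 0.127 (SD, n = 2 each). The ranges of mean ± SD of ICAM1 and BIRC3 overlap. CXCL1 at 0.659 ± 0.00527, CXCL3 at 0.468 ± 0.172 and CXCL8 at 0.431 ± 0.0327 came next, and the libraries of CXCL3 and CXCL8 overlap. CXCL2 was at 0.217 ± 0.0137 and CCL20 at 0. The value of SOD2 is divided by a model of 14266 bases and would be higher with a shorter one.

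With SP2509 the order began with IER3 (225 ± 27.8) and LIF (41.8 ± 3.52), followed by CXCL8 at 4.61 ± 0.526 and SOD2 at 3.99 ± 0.145, whose ranges of mean ± SD overlap. BIRC3 followed at 2.98 ± 0.308, then ICAM1 (1.18 ± 0.197) and CXCL3 (1.17 ± 0.057), which overlap, and CXCL1 (0.659 ± 0.0813) and CXCL2 (0.625 ± 0.0625), which overlap too. In siPIR cells IER3 (84.2 ± 12.1) was followed by SOD2 (13.1 ± 1.85) and BIRC3 (12.6 ± 0.411), which overlap, then CXCL8 (5.35 ± 0.94), LIF (3.46 ± 0.577), CXCL3 (0.842 ± 0.159), CXCL1 (0.57 ± 0.0659), ICAM1 (0.473 ± 0.101) and CXCL2 (0.343 ± 0.000795). CXCL1 and ICAM1 overlapped there. No GC-length offset was applied to these orders, and fold changes in siPIR followed GC content. With the offset, siPIR against untreated gave 0.29 for LIF and -0.24 for SOD2 on the log2 scale.

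Among the neutrophil chemokines, CXCL8 made up 72.0% and 78.1% of the summed CPM per kilobase of CXCL1, CXCL2, CXCL3 and CXCL8 in siPIR libraries, 63.6% and 66.8% in SP2509 libraries and 23.6% and 25.1% in untreated libraries. The sum itself was 6.51 and 7.71 in siPIR, 6.66 and 7.46 in SP2509 and 1.93 and 1.63 in untreated libraries, and rests on 71.5 to 308 counts a library. These levels carry no GC-length offset, and CXCL8 has 33.4% GC against 45.6% to 50.5% in the other 3 genes. With the offset, siPIR against untreated gave 1.48 for CXCL8 and 1.48 for CXCL3, and siPIR against SP2509 gave -2.03 for CXCL8.

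**Figure D5:**
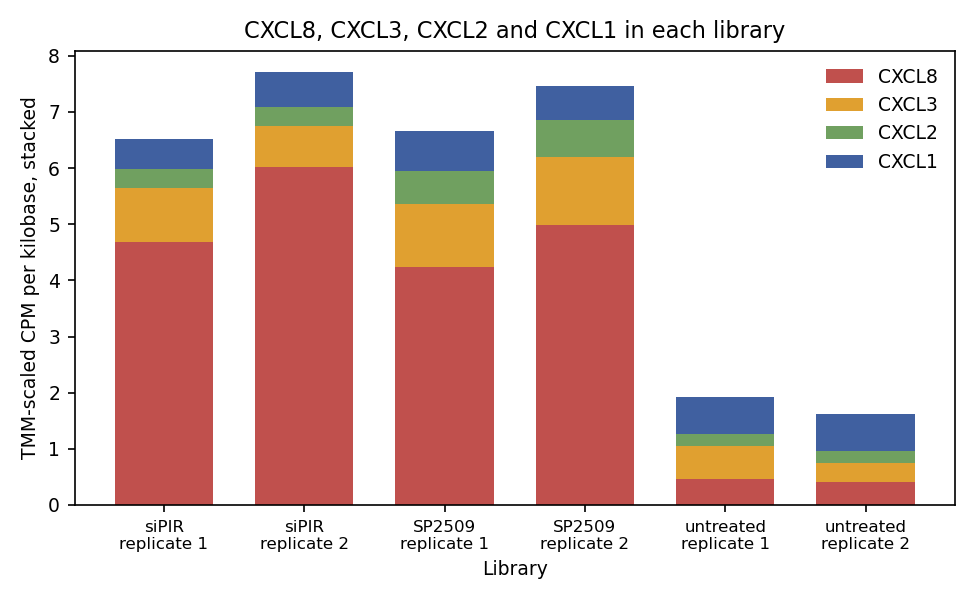
Stacked bars give TMM-scaled CPM per kilobase of CXCL8 (red), CXCL3 (orange), CXCL2 (green) and CXCL1 (blue) in each library. The sum is 6.51 to 7.71 in siPIR and SP2509 libraries and 1.63 to 1.93 in untreated libraries, and most of the difference is CXCL8, with no GC-length offset applied to these levels.

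The genes nearest to each member in profile were found by the Euclidean distance between log2 CPM values centred over the 6 libraries. MXD1, which encodes a partner of MAX that opposes MYC, was nearest to CXCL8 (distance 0.383), at 76.7 CPM in siPIR, 76.6 CPM in SP2509 and 7.07 CPM in untreated cells. EMP3 (0.171), WNT9A (0.196) and VPS37B (0.212) were nearest to LIF, GBE1 (0.321) to BIRC3 and CMTM7 (0.143) to IER3. MIR600HG (0.224) was nearest to ICAM1, with NOD1 (0.234) second, and SS18L1 (0.0861) was nearest to SOD2. These profiles carry no GC-length offset. EMP3, WNT9A and VPS37B have 59.47%, 59.53% and 59.35% GC against 56.9% in LIF, while GBE1 has 43.9% against 34.8% in BIRC3. The part of GC content in these distances was not tested. Among the members themselves CXCL2 and CXCL3 were the closest pair (0.601), followed by ICAM1 and IER3 (0.70). The nearest member to CXCL8 was BIRC3, at a distance of 2.34.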

How the data were processed

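RNA-seq libraries of HCT116 cells (3 groups of 2, grouped by the sample titles) were analysed from a table of estimated counts for 60675 Ensembl genes that the authors deposited. Of these values 11.0% carry a fraction. The tools FastQC 0.11.8, Trimmomatic 0.32, HISAT2, featureCounts, Subread 1.6.2, edgeR 3.26.4 and GRCh38 are named per the submitters' processing notes. The sources used here do not give the annotation release, strand setting or rule for shared reads. Counts were rounded to whole numbers, filtered with filterByExpr, scaled by TMM and fitted with edgeR 4.0.16 (R 4.3.3, robust quasi-likelihood test, 6 libraries, no covariates, 3 residual degrees of freedom). The Benjamini-Hochberg adjustment ran over the 16503 tested genes, and calls were made at 0.05. SE was obtained from the fold change and F statistic.

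GC content, length and coordinates came from GENCODE 29, which held 57055 of the identifiers. The offset used natural splines of 5 degrees of freedom on GC content and log2 length, and 16345 of the tested genes had both. The fit was tested on simulated data for SP2509 against untreated alone. Those data held no GC or length trend, so the removal of such a trend and the siPIR comparisons were not tested. The members and lists were chosen with earlier results of these data known. All 10 members are named, up to 4 genes of each other list by smallest adjusted p, and the nearest profiles. Alternatives were 2 scalings, DESeq2 1.42.0, no filter, a replicate block, the offset, the 4 libraries compared, summed paralogs and each library left out. The block together with the offset was added after the data were seen.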

Additional observations from a re-analysis of the deposited data

How the results depend on the processing

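With each library left out in turn, only CXCL1 and IER3 changed sign among the tested members, and only for SP2509 against untreated. DESeq2 called 9878 genes for SP2509 against untreated, 13394 for siPIR against untreated and 13247 for siPIR against SP2509. Of the called genes, 48.8% were higher with SP2509 under TMM and 28.3% under total counts, and 45.6% were higher in siPIR than in untreated cells under TMM and 33.9% under total counts.

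CXCL1 with SP2509 lay near 0 and changed sign, at 0.020 with median-of-ratios factors and also with DESeq2 (0.01996), 0.013 with no filter, 0.0054 with the 4 libraries alone and -0.12 to 0.14 with 1 library left out. Summed with CXCL2 and CXCL3 it was 0.94 with SP2509 and 0.46 in siPIR, each against untreated. IER3 with SP2509 was -0.35 with total counts and -0.068 to 0.18 with 1 library left out. With the GC-length offset, siPIR against untreated gave 0.29 for LIF, 0.53 for ICAM1, 1.40 for IER3 and -0.24 for SOD2, and siPIR against SP2509 gave 0.15 for CXCL3, -2.03 for CXCL8, 0.83 for ICAM1, 1.23 for IER3 and -0.086 for BIRC3. CXCL8 in siPIR against SP2509 was -0.0096 with total counts. The cause of these changes was not tested.

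The deviations of same-numbered libraries correlated at -0.038, -0.024 and 0.081, so no clear shared shift by replicate number was seen. With 2 libraries per group this cannot show whether the libraries were paired by design. The descriptions carry another number, unexplained, that equals 11 and 12 in replicates 1 and 2 of SP2509 and of untreated but 10 and 11 in those of siPIR. By it siPIR shares only 1 number with each other group, so no block on it was fitted for siPIR. Deviations of libraries numbered 11 correlated at 0.038 between siPIR and untreated and at -0.081 between siPIR and SP2509. With 2 libraries per group these are the values by replicate number with the sign turned, so they are no separate check. With the replicate block, 11179 genes were called for SP2509 against untreated, 14136 for siPIR against untreated and 13816 for siPIR against SP2509, with 7, 7 and 5 members. With the block and the offset in 1 fit, siPIR against untreated gave 0.28 for LIF, 0.55 for ICAM1 (now called, edgeR adjusted p = 0.0489), 1.40 for IER3 and -0.24 for SOD2, IER3 with SP2509 lost its call (edgeR adjusted p = 0.0533), and siPIR against SP2509 gave 0.14 for CXCL3, -2.03 for CXCL8, 0.84 for ICAM1, 1.23 for IER3 and -0.087 for BIRC3. CXCL2 was not tested in the 4-library fit of siPIR against untreated. Depth limits CXCL1, CXCL2 and CXCL3, which had 8 to 51 counts a library, and CCL20, which entered only without the filter.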
